A study of Mus musculus with 24 samples.

Results

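Control brains and control testes of the same mixed mouse strain were compared on bead arrays, 4 of each, chosen by their labels as the wild-type brain replicates and the wild-type testis replicates. These are 8 of the 24 arrays of a study of mice with a mutation in Smc6, a subunit of the SMC5/6 complex that acts in DNA repair, in which testis, spleen and brain of mutant and control males were profiled. The brains came from animals 19 weeks old and the testes from other animals 12 weeks old, all of strain C57BL/6J-129ola-Fvb and 1 animal per array. The genotype label of all 8 is wildtype. By their mouse identifiers, however, testis replicates 1 and 2 were +/+ and replicates 3 and 4 were +/-, while the identifiers of the brains carry no genotype mark. Tissue, age and animal set therefore cannot be told apart, and no slide or scan record was given. The labels do not say which part of the brain was taken.

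Brain is built of neurons that signal through synapses, of oligodendrocytes that wrap their axons in myelin, and of astrocytes, microglia and vessels. Adult testis is mostly germ cells, which pass through mitotic spermatogonia, meiotic spermatocytes and haploid spermatids that build an acrosome and a flagellum and replace histones by protamines, supported by Sertoli and Leydig cells. Both tissues are known for large numbers of transcripts found in few other organs, and spermatogenic cells are known for using germ-cell copies of many housekeeping genes. In whole tissue, fewer cells of a type and less RNA per cell cannot be told apart.

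The 4 brains differed from the 4 testes in most transcripts measured. Of 25697 probes, 13797 to 14075 were detected on a brain array and 12892 to 13128 on a testis array, at a detection p under 0.05. The upper quartile of the raw intensities was 169 to 189 in brain and 80.7 to 107 in testis. The brightest 1% of probes held 26.8% to 27.4% of the signal of a brain array and 29.8% to 30.8% of that of a testis array. Over the 15531 probes tested, correlations of log2 levels lay between 0.994 and 0.996 among brains, between 0.991 and 0.993 among testes and between 0.334 and 0.345 across the tissues, as a description over probes that share each array.

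A probe was called when its limma adjusted p was under 0.05, and 14035 of 15531 probes (90.4%) were called, 7733 higher in brain (49.8%) and 6302 higher in testis (40.6%). With a difference of at least 2-fold required as well, 9238 probes (59.5%) were called. Of these, 4952 probes (31.9%) were higher in brain and 4286 (27.6%) in testis, as shares of all tested. For 1339 and 1479 of them the other tissue had no detected array, so that the fold is a bound. The 4 brains and 4 testes did not overlap for 13385 probes (86.2%). The median difference, brain minus testis, was 0.24 on the log2 scale over all probes. This balance rests on the scaling. Of the calls of at least 2-fold, 53.6% were higher in brain after quantile normalization, 67.8% without normalization between arrays, 46.6% when the 75th percentiles were equated and 42.5% after cyclic loess, and the median difference moved to 0.73, -0.03 and -0.08. Directions below are relative to quantile normalization, and differences near 0 have no settled sign. Counted by gene, each through its brightest probe, 10745 genes were tested, of which 3601 (33.5%) were at least 2-fold higher in brain and 2939 (27.4%) in testis. These are the shares against which the counts of each gene list are to be read. A gene detected on no array of a tissue passed the filter through the other tissue alone. Its direction was therefore largely set by the filter and is no separate evidence for a list. List medians use the fitted differences, and a median "with bounds" puts bounds in place of undetected readings.

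The promoters of a few genes that stand near the ends and in the middle of the comparison are shown first, because the groups of genes described below differed in CpG content. These genes were picked by hand, not by rank, and are not typical of their groups. The CpG counts of Prm1, Smcp and Syn1 lie further out than the medians of their groups given below. The sequences are RefSeq promoters of assembly GRCm38.p6, from 250 bases before to 50 bases after the start of the gene, written 5′ to 3′ on the strand of the gene, with every CpG in capitals. Prm1 (chr16:10796774-10797073, minus strand) encodes a protamine and Smcp (chr3:92589024-92589323, minus strand) a protein of the sperm mitochondrial capsule, and both were detected in every testis and in no brain. Syn1 (chrX:20920869-20921168, minus strand) encodes the vesicle protein synapsin and was detected in every brain and in no testis. Fabp3 (chr4:130308488-130308787, plus strand) encodes a fatty acid binding protein and had nearly the same level in both tissues.
Prm1: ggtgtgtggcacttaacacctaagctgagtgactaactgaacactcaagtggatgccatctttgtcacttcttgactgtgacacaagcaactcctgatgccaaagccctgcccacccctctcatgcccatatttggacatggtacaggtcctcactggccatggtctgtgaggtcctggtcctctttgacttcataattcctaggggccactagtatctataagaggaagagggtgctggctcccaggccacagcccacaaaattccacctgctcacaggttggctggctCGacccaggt
Smcp: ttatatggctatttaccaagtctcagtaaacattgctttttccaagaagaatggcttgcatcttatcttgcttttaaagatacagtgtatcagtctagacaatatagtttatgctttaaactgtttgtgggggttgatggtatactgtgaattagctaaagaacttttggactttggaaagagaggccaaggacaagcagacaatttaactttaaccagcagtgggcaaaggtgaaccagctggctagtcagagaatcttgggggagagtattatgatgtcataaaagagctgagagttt
Syn1: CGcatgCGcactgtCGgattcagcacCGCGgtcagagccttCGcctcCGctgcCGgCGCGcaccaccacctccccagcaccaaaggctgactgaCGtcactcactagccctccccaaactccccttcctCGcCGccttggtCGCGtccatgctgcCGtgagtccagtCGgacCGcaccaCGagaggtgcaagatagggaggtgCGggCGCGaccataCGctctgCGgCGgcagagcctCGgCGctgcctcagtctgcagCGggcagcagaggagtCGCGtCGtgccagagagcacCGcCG
Fabp3: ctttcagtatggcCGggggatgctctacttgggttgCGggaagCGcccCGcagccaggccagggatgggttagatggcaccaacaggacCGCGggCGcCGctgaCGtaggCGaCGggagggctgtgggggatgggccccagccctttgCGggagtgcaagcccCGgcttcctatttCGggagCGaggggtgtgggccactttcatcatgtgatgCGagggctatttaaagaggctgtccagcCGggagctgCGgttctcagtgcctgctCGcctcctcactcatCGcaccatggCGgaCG

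These windows of 300 bases hold 1 CpG in Prm1, 0 in Smcp, 33 in Syn1 and 22 in Fabp3. Among all 27025 genes with a promoter in the table, the median was 7 CpG and 43.9% had at least 10. The 8733 genes tested that had a promoter there had a median of 19, with 76.8% at 10 or more. Genes at least 2-fold higher in brain had a median of 20 and genes at least 2-fold higher in testis a median of 17. Genes were also classed by detection of their brightest probe, if it was called at least 2-fold as well. Those detected on all 4 testes and on no brain stood apart, with a median of 6 CpG and 39.4% at 10 or more over 803 promoters. Those detected on all 4 brains and on no testis had a median of 16 and 68.2% at 10 or more over 682 promoters. Genes at a shared level, defined below, had a median of 22 and 88.9% at 10 or more over 1104 promoters. These counts describe the windows and no test was run on them.

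A few sequence motifs were counted in the same windows on both strands. The letters TTCAGCACC are a stretch of the element bound by the neuronal gene repressor REST. They were present in 8 of 682 promoters (1.17%) of the genes classed above as detected on every brain and no testis. Detection in spleen was not considered in these classes. For those classed as detected on every testis and no brain it was 2 of 803 (0.249%). The shares were 0.359% of all promoters and 0.378% of those of the genes tested. In the classes at least 2-fold higher the contrast was smaller, with 0.521% for brain and 0.336% for testis. These letters are present in the Syn1 window shown. The letters TGACGTCA, the full cAMP response element, which the Syn1 window also holds, were present in 1.91% and 1.87% of the same promoters, against 1.88% of all and 3.08% of those of the genes tested. In the classes at least 2-fold higher it was 3.33% for brain and 3.07% for testis. A strict form of the X-box bound by RFX factors of ciliated cells was present in 5 of 2879 promoters (0.174%) of genes at least 2-fold higher in brain. For genes at least 2-fold higher in testis it was 16 of 2378 (0.673%), against 0.444% of all and 0.515% of those of the genes tested. In the classes by detection it was 1 of 682 (0.147%) for brain and not testis and 4 of 803 (0.498%) for testis and not brain, the latter near the share of the genes tested. No motif contains another, and each was counted on its own. A match is a description of the letters only.

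Smc6 itself was about 5 times more abundant in testis. Its probe ILMN_2728385, for a gene on chromosome 12, read 6.04, 6.14, 6.16 and 6.13 in the brains and 8.25, 8.47, 8.48 and 8.58 in the testes (log2 intensity after normalization). The groups did not overlap, and the 2 testes of +/- animals read no lower than the 2 of +/+ animals. The difference was -2.33 (SE 0.09, limma adjusted p = 3.78e-11), or 5.02-fold. Its partner Smc5 was 5.63-fold higher in testis (adjusted p = 1.64e-09), and the subunit gene Nsmce1 10.4-fold. The 3 probes of the SUMO ligase gene Nsmce2 differed by -1.03, -1.40 and -1.65, the last with detection on 1 of 4 brains. Of the 19 tested genes of SMC5/6, cohesin and condensin, 12 were at least 2-fold higher in testis and 3 in brain, with a median difference of -2.30. Eid3, a germ-cell-enriched subunit of the complex, was detected on every testis array and no brain array, at least 134-fold higher. Smc5, Nsmce1 and Nsmce2 were chosen after their values were seen. "At least" marks here and below a probe detected on no array of the lower tissue, whose fold was computed against the lowest detected level of those arrays, or the probe's own level if higher.

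The largest contrasts were read from bounds and from probes detected on all 8 arrays separately. Syp, which encodes the vesicle membrane protein synaptophysin, read 13.40, 13.43, 13.48 and 13.56 in the brains and 4.36 to 4.71 in the testes, where it was not detected, a difference of at least 384-fold. It was followed by Ttr (at least 348-fold), the thyroid hormone carrier secreted by the choroid plexus, Thy1 (at least 332-fold), a surface glycoprotein of neurons, Eef1a2 (at least 297-fold), the elongation factor of neurons and muscle, and Syn1 (at least 287-fold). Eno2, Camk2b, Rasgrp1, 6330403K07Rik and Rbfox1 completed the 10 largest bounds among genes detected on every brain and no testis, at 187-fold or more. Among probes detected on all 8 arrays the largest was that of Mbp, myelin basic protein, which read 13.99, 14.06, 14.01 and 14.08 in the brains and 5.30, 5.50, 5.28 and 5.54 in the testes. That is 396-fold (difference 8.63, SE 0.08, limma adjusted p = 4.42e-16). Also among the 10 largest of these were Cplx1 (241-fold), which clamps and promotes vesicle fusion, Sult4a1 (195-fold), Vsnl1 (192-fold), a neuronal calcium sensor, and Pvalb (165-fold), the calcium buffer of fast interneurons.

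Among genes detected on every testis and no brain the largest bound was that of Ldhc, the lactate dehydrogenase of germ cells, which read 14.44 on each of the 4 testes and 4.28 to 4.35 in the brains, at least 835-fold higher. The identical values are those of a probe that held the same rank on each array, since quantile normalization gives equal ranks equal values. Gsg1 (at least 777-fold), Prm1 (at least 686-fold), Tulp2 (at least 660-fold), Smcp (at least 620-fold) and Fabp9 (at least 610-fold), a fatty acid binding protein of spermatids, followed. Prm1 read 14.17, 14.08, 14.20 and 14.17 in the testes and 4.34, 4.42, 4.29 and 4.30 in the brains. Cabs1, Odf1, a protein of the outer dense fibres of the sperm tail, Dnaaf1, an assembly factor of ciliary dynein, and Gtsf1l were at least 422-fold higher. Among probes detected on all 8 arrays, Tcte3, a dynein light chain of the axoneme, was 370-fold higher in testis (difference -8.53, SE 0.11, limma adjusted p = 2.34e-15), ahead of Sh3d21 (257-fold), Odf4 (248-fold) and Tdrd6 (230-fold), a tudor protein of the chromatoid body. Phf7, Spata6, Tmco5, Ttc29, Tuba3b and Atl3 lay between 147-fold and 185-fold.

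**Figure D1:**
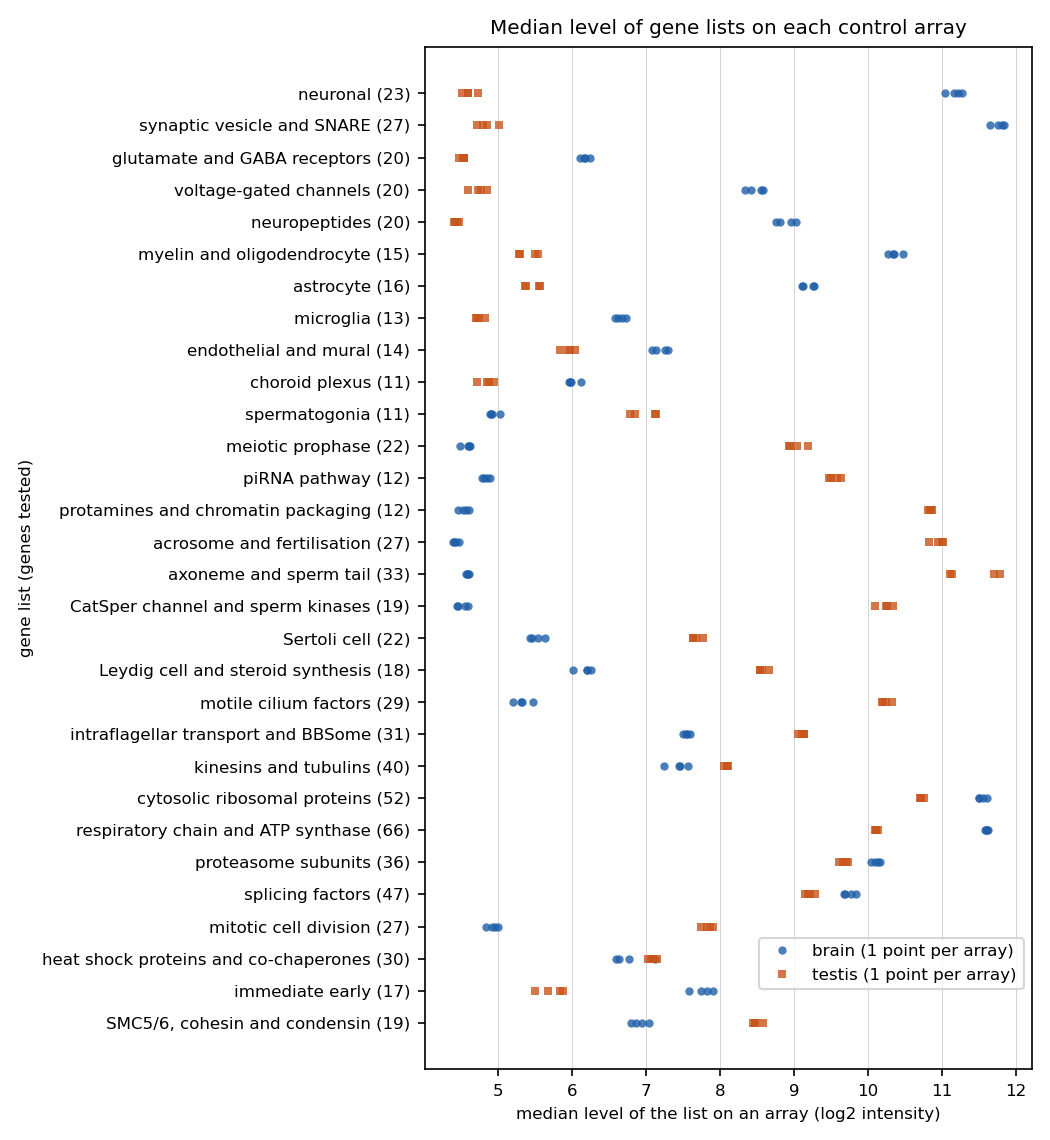
Median level of each gene list on every array (log2 intensity, x axis), with 1 point for each of the 4 control brains and the 4 control testes and the number of genes tested in brackets. Lists of neuronal and glial genes lie right in brain and lists of germ cell genes lie right in testis, while the proteasome and splicing lists lie close together and the points of the heat shock list overlap.

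Neuronal genes, each read by its brightest probe, were higher in brain throughout. Another probe of Map2, which is on this list, was higher in testis (difference -2.36), as described below. All 23 tested genes of the neuronal list (of 26 listed) were at least 2-fold higher in brain, against 33.5% of all genes, with a median difference of 6.42 on the log2 scale against 0.28 over all genes. The median level of the list was 11.04 to 11.27 on the brain arrays and 4.52 to 4.73 on the testis arrays, and 13 of the 23 were detected on no testis array. Camk2b, a subunit of the calcium kinase of the postsynaptic density, was at least 223-fold higher and Eno2, the neuronal enolase, at least 260-fold. The 3 listed genes not tested were Nefl, Snap25 and Tubb3, whose probes were detected on fewer than 4 of the 8 arrays and which are named after this was seen. These are abundant neuronal transcripts by general knowledge, so a probe under the filter on this array does not show that a transcript was missing.

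Synapse and channel genes behaved alike, with exceptions that could be named. Of 27 synaptic vesicle and SNARE genes, 13 were detected on no testis. Of the 27, 26 were at least 2-fold higher in brain and 0 in testis, with a median difference of 5.30, or 4.78 with bounds. Syt1, the calcium sensor of release, was at least 167-fold higher and Sv2a at least 185-fold. Of 20 neuropeptide and secretory granule genes, 15 were detected on no testis. Of the 20, 19 were at least 2-fold higher in brain, with a median of 4.34, or 4.00 with bounds, led by Sst (at least 97.0-fold), Scg2 (at least 67.1-fold) and Cck (at least 66.0-fold). Of 20 voltage-gated channel genes, 8 were detected on no testis. Of the 20, 17 were at least 2-fold higher in brain (median 3.89, or 3.60 with bounds). Among them were Kcnab1 at 54.8-fold and detected on 1 of 4 testes, Cacnb4 at 41.8-fold and Hcn2 at 40.7-fold or more. Kcnip2, which binds A-type potassium channels, was the only one of the 20 with a call of at least 2-fold in testis, at 2.77-fold.

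Of 20 glutamate and GABA receptor genes, 11 were detected on no testis. Of the 20, 16 were at least 2-fold higher in brain and 2 in testis, with a median difference of 1.45, or 1.24 with bounds. Gria2, an AMPA receptor subunit, was 150-fold higher in brain, with detection on 2 of 4 testes, and Gria1, Gabrd and Gabrb1 were at least 40.5-fold, 20.0-fold and 13.1-fold higher. Grin2b, an NMDA receptor subunit, went the other way. Its probe read 4.77, 5.04, 4.67 and 4.53 in the brains, where it was detected on 2 of 4 arrays, and 7.49, 8.06, 7.56 and 7.46 in the testes, a 7.42-fold difference with no overlap (difference -2.89, SE 0.14, limma adjusted p = 7.89e-10). Grik2, a kainate receptor subunit, was 2.07-fold higher in testis, with detection on 1 of 4 brains. Of 34 listed receptor genes, 14 gave no tested probe, so the list is covered in part.

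Glial genes separated by cell type in the same direction. Of 15 tested myelin and oligodendrocyte genes 13 were at least 2-fold higher in brain (median 3.92, or 3.63 with bounds), and 5 of the 15 were detected on no testis. Cnp, with detection on 2 of 4 testes, was 54.5-fold and the lineage factor Olig1 35.4-fold higher in brain. Fa2h, which makes the hydroxylated sphingolipids of myelin, was in contrast 1.55-fold higher in testis (difference -0.63, SE 0.09, limma adjusted p = 1.58e-05). Of 16 astrocyte genes 14 were at least 2-fold higher in brain (median 2.43, or 2.14 with bounds), and 6 of the 16 were detected on no testis. Among them were the glycolytic enzyme Aldoc at 101-fold, Aqp4, the water channel of astrocyte endfeet, at 55.0-fold or more, and Slc1a3, a glutamate transporter, at 42.5-fold.

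Of 13 microglia genes 10 were at least 2-fold higher in brain (median 1.86, or 1.59 with bounds), and 6 of the 13 were detected on no testis. The chemokine receptor gene Cx3cr1 was 8.01-fold and the complement gene C1qc 4.92-fold higher in brain. Aif1, used as a microglia and macrophage marker under the name IBA1, read 6.16, 6.07, 6.18 and 6.31 in the brains and 11.04, 11.18, 10.99 and 10.90 in the testes. It was thus 28.7-fold higher in testis (difference -4.85, SE 0.09, limma adjusted p = 3.92e-14), with no overlap. Of 14 endothelial and mural genes 8 were at least 2-fold higher in brain and 2 in testis. Flt1, a VEGF receptor, was 23.3-fold and the glucose transporter gene Slc2a1 16.6-fold higher in brain, whereas the smooth muscle genes Myh11 and Acta2 were 2.75-fold and 2.46-fold higher in testis. Vwf, made by endothelial cells, differed by 0.17 (SE 0.10) and did not pass (limma adjusted p = 0.113). Of 11 choroid plexus genes 6 were at least 2-fold higher in brain, and 5 of the 11 were detected on no testis. Beside Ttr, Igf2 was 8.46-fold and Otx2 at least 4.68-fold higher in brain, and Folr1 was 4.37-fold higher in testis, with detection on 2 of 4 brains.

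The median difference of the germ cell lists was smallest for spermatogonia, larger for meiotic prophase and largest for the lists of spermatid proteins. Of 11 tested spermatogonia genes 4 were at least 2-fold higher in testis, against 27.4% of all genes, and 2 in brain, with a median of -0.38. Ddx4, the germline RNA helicase, was at least 32.4-fold, Dazl, a germline RNA-binding protein, 16.9-fold and Sohlh1, with detection on 1 of 4 brains, 10.0-fold higher in testis. Uchl1, a ubiquitin hydrolase that marks spermatogonia but is also abundant in neurons, read 11.04 to 11.27 in the brains and 7.52 to 7.71 in the testes, 11.7-fold higher in brain. Ret, the receptor for GDNF, was 2.73-fold higher in brain, with detection on 1 of 4 testes. Another 6 listed spermatogonia genes were below the filter on low signal, so the list rests on its brighter members.

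Of 22 tested genes of meiotic prophase 19 were at least 2-fold higher in testis and 0 in brain (median -3.01), and 11 of the 22 were detected on no brain. The meiotic cohesin subunit gene Stag3, detected on 2 of 4 brains, was 140-fold, the piRNA-binding Piwil1 134-fold, the chaperone gene Clgn 78.8-fold and the cyclin gene Ccna1 at least 65.8-fold higher. The piRNA pathway, which silences transposons in germ cells through small RNAs bound by PIWI proteins, had 10 of 12 tested genes at least 2-fold higher in testis and 0 in brain (median -3.60), with Tdrd6 at 230-fold and Piwil2, detected on 2 of 4 brains, at 52.9-fold.

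Genes of the haploid phase were higher in testis with few exceptions. All 12 tested genes for protamines and chromatin packaging were at least 2-fold higher in testis (median -6.46), 8 of them detected on no brain. Tnp1, a transition protein that precedes the protamines, was 380-fold higher with detection on 1 of 4 brains, and Ybx2, which stores protamine transcripts, 513-fold with detection on 3 of 4 brains. Of 27 tested acrosome and fertilisation genes, 19 were detected on no brain. All 27 were at least 2-fold higher in testis (median -6.30, or -6.20 with bounds). They included the sperm surface proteins Adam3 (at least 264-fold) and Adam5 (at least 221-fold), the acrosomal Acrv1 (at least 195-fold) and the actin relative Actl7a (at least 249-fold). Of 19 tested genes of the CatSper calcium channel and sperm kinases, 11 were detected on no brain. Of the 19, 17 were at least 2-fold higher in testis (median -5.65, or -5.22 with bounds). Tssk6 was at least 323-fold, Catsper2 108-fold and the soluble adenylyl cyclase Adcy10 at least 92.4-fold higher. Prkaca, the catalytic subunit of protein kinase A, was the single member at least 2-fold higher in brain, at 2.21-fold.

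Of 33 tested axoneme and sperm tail genes 32 were at least 2-fold higher in testis (median -6.50). The exception was Ift81, which differed by -0.15 (SE 0.08) and did not pass (limma adjusted p = 0.0983). The median level of this list was 11.71 and 11.79 on the testis arrays of +/+ animals and 11.11 and 11.13 on those of +/- animals. On the arrays of the +/+ animals that median was the value of Cfap69 itself, a flagellar protein whose probe ILMN_2714209 read 11.71 and 11.79 there and 6.82 and 7.45 in the +/- testes, against 6.07, 6.14, 6.77 and 6.80 in the brains. Its probe ILMN_2628236 read 10.16 and 9.70 in the +/+ testes, 7.00 and 7.28 in the +/- testes and 4.70 to 5.35 in the brains. The difference of ILMN_2714209, brain minus testis, had a 95% interval of -5.14 to -0.86 (SE 0.98, limma adjusted p = 0.0117) and ILMN_2628236 differed by -3.54 (SE 0.60, limma adjusted p = 0.000112), and with 2 animals of each genotype the difference between genotypes was not tested here.

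Cilia are shared by both tissues, as ependymal cells of the brain carry motile cilia, neurons carry a primary cilium and sperm a flagellum. Of 29 tested motile cilium factors 26 were at least 2-fold higher in testis and 1 in brain (median -5.11). Of the 29, 3 were detected on no brain, against 18 of 33 axoneme and sperm tail genes. Over all 15531 probes tested, 1712 were detected on no brain, a share close to that of the cilium list. The lists overlap, with Dnaic1, Tekt1, Spag16, Rsph1 and Ccdc39 on both. Morn5 was 143-fold, Mlf1 130-fold and Cfap206 at least 159-fold higher in testis. Foxj1, the master factor of motile cilia, differed by -0.27 (SE 0.12) and did not pass (limma adjusted p = 0.0517), with 5.31 to 5.62 in the brains and 5.46 to 5.94 in the testes, ranges that overlap. Tppp3 was 5.30-fold higher in brain. Of 31 genes of intraflagellar transport and the BBSome, which carry cargo into all cilia, 17 were at least 2-fold higher in testis, 2 in brain and 12 in neither (median -1.17). Ift140 was 15.0-fold, Ift172 10.6-fold and B9d1 10.5-fold higher in testis, Rpgrip1l 2.53-fold, with detection on 3 of 4 testes, and Bbs4 2.17-fold higher in brain, and Ttc8 differed by -0.02 (SE 0.13).

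Genes of the somatic cells of the testis were divided between the tissues. Of 22 tested Sertoli cell genes 13 were at least 2-fold higher in testis and 4 in brain (median -1.82). The median turned to 0.31 over probes detected on all 8 arrays, a filter that leaves out the 9 of the 22 detected on no brain. Defb19 (at least 243-fold), Cst9 (at least 219-fold), Wt1, the factor that marks Sertoli cells (at least 22.1-fold), and Aard (19.2-fold) led, while Trf, the iron carrier transferrin, was 12.3-fold and Inhba at least 5.18-fold higher in brain. Of 18 genes of Leydig cells and steroid synthesis 10 were at least 2-fold higher in testis and 4 in brain (median -1.07, or -0.93 with bounds). Of the 18, 6 were detected on no brain. Insl3, the peptide hormone of Leydig cells, was at least 95.5-fold, the steroid lyase gene Cyp17a1 at least 91.2-fold and Hsd17b3, which makes testosterone, at least 4.69-fold higher in testis. Hsd11b1, which reactivates glucocorticoids, was 18.9-fold and the cholesterol synthesis gene Hmgcs1 4.86-fold higher in brain.

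**Figure D2:**
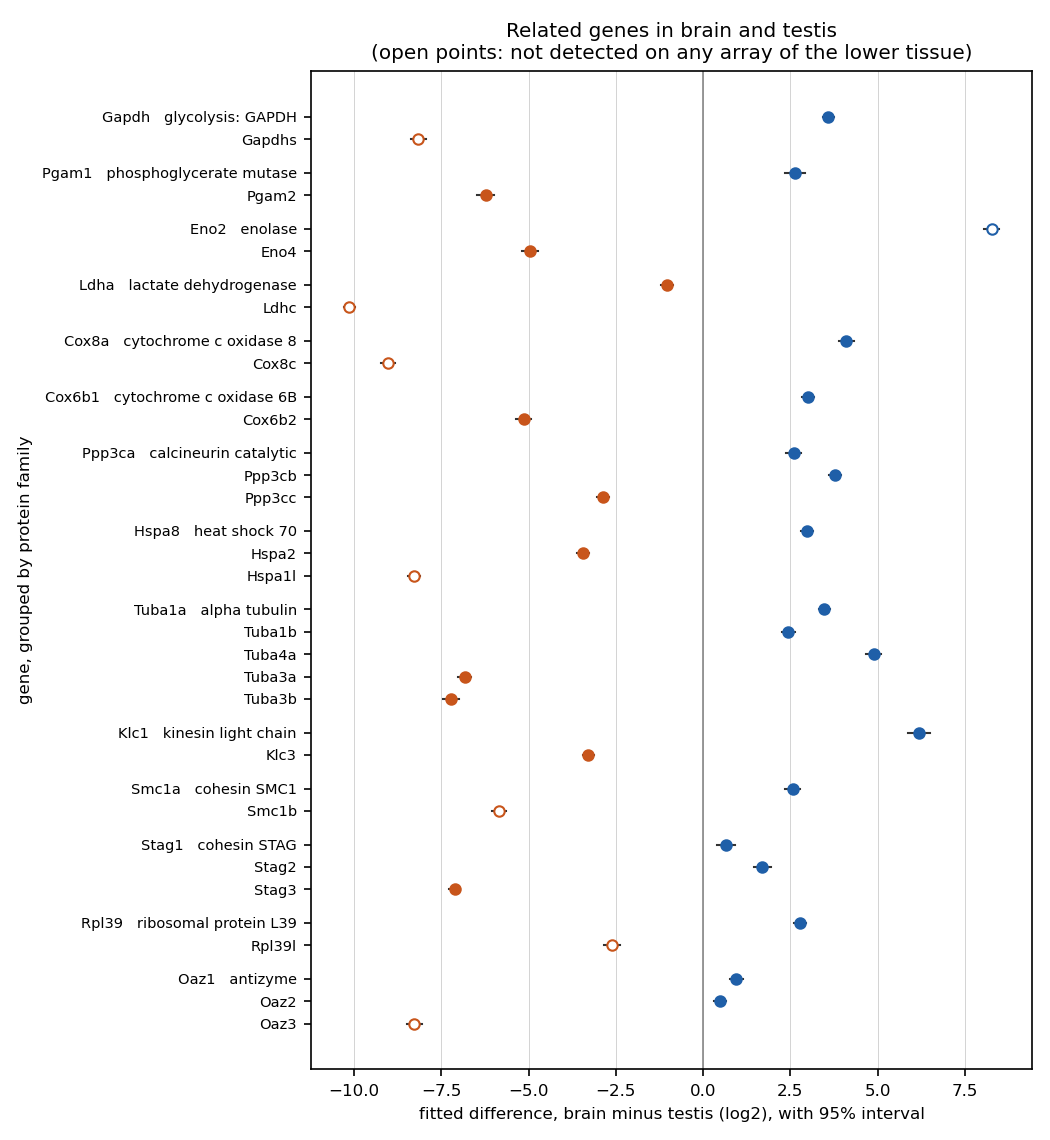
Fitted difference, brain minus testis, of related genes in 14 of 29 protein families, picked after their values were seen (log2, points, with 95% intervals as lines, n = 4 arrays each). Open points mark genes detected on no array of the lower tissue. In 13 of the 14 families shown the general or brain members lie to the right of 0 and the germ cell members to the left. In lactate dehydrogenase both lie to the left.

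Related genes were compared in 29 protein families with a general or brain member and a germ cell or other member tested. Eno2, Cplx1 and Cplx2, for example, stand on the general side but are known from neurons. For such families the direction follows in part from the choice of members. In 17 every general or brain member was called higher in brain and every other member higher in testis, in 12 of them by at least 2-fold throughout. In 8 families all members were called higher in testis, and 4 were mixed. The plot of related genes shows 14 families picked after their values were seen. In glycolysis, Gapdh read 13.68 to 13.74 in the brains and 10.05 to 10.20 in the testes, 12.0-fold higher in brain. Its sperm counterpart Gapdhs read 4.26 to 4.59 in the brains, where it was not detected, and 12.42 to 12.76 in the testes, at least 228-fold higher. Phosphoglycerate mutase followed, with Pgam1 6.22-fold higher in brain and Pgam2 higher in testis by a difference of -6.23 on the log2 scale, and enolase, with Eno2 at least 260-fold higher in brain and Eno4 31.4-fold higher in testis. Pgk2, the germ cell phosphoglycerate kinase, was at least 334-fold higher in testis, but the probe of its X-linked relative Pgk1 was dim in brain and detected on no testis (at least 1.14-fold). In lactate dehydrogenase Ldha, too, was higher in testis (2.05-fold) beside Ldhc, and so were both hexokinase genes, Hk1 at 4.06-fold and Hk2 at 4.09-fold.

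The terminal oxidase of respiration gave the same contrast. Cox8a was 17.3-fold higher in brain and Cox8c at least 394-fold higher in testis, and Cox6b1 was 8.06-fold higher in brain and Cox6b2 35.3-fold higher in testis. Among signalling and folding proteins, the calcineurin catalytic subunits Ppp3ca and Ppp3cb were 6.03-fold and 13.8-fold higher in brain and Ppp3cc 7.32-fold higher in testis. The constitutive chaperone gene Hspa8 was 7.91-fold higher in brain, and its germ cell relatives Hspa2 and Hspa1l were 10.9-fold and at least 245-fold higher in testis. Hspa2 was also well detected in brain, at 10.55 to 10.65 against 13.97 to 14.17 in testis.

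The cytoskeleton and chromosome proteins were split likewise. Tuba4a, with detection on 1 of 4 testes, Tuba1a and Tuba1b were 29.6-fold, 11.1-fold and 5.44-fold higher in brain, and Tuba3a and Tuba3b, near-identical copies that their probes may not separate, 114-fold and 149-fold higher in testis. The kinesin light chain gene Klc1 was 73.2-fold higher in brain and Klc3 9.79-fold higher in testis. In cohesin, the ring that holds sister chromatids together, Smc1a was 5.91-fold, Stag2 3.23-fold and Stag1 1.58-fold higher in brain, and the meiotic Smc1b (at least 43.5-fold), Stag3 (140-fold) and Rec8 (at least 25.8-fold) were higher in testis. Rpl39 was 6.91-fold higher in brain and Rpl39l at least 4.51-fold higher in testis. Oaz1, a regulator of polyamines, was 1.94-fold higher in brain and Oaz3 at least 281-fold higher in testis. Gpx1 was 3.48-fold higher in brain and Gpx4, which guards sperm lipids, 3.34-fold higher in testis. The complexin genes Cplx1 and Cplx2 (at least 32.3-fold) were higher in brain and Cplx4 at least 1.31-fold higher in testis, and the elongase genes Elovl1 (2.66-fold) and Elovl4 (at least 26.6-fold) were higher in brain and Elovl2, with detection on 3 of 4 brains, 6.46-fold higher in testis.

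Other families did not follow that division. The poly(A) polymerase genes Papola (2.81-fold) and Papolb (at least 123-fold) were both higher in testis, as were the poly(A)-binding protein genes Pabpc1 (5.91-fold) and Pabpc2 (at least 306-fold), Calr (3.25-fold) and Calr3 (112-fold), Ybx3 (61.7-fold) and Ybx2, and the mitotic kinase gene Aurka and its meiotic relative Aurkc (at least 1.90-fold). Of the glucose transporters, Slc2a1 was higher in brain, and Slc2a3, the transporter of neurons and sperm, was 4.07-fold higher in testis. Of the HSP110 chaperones, Hsph1 was 9.88-fold higher in brain and Hspa4 5.17-fold higher in testis, and of the importins Kpna1 was 1.54-fold higher in brain and Kpna2 (at least 6.45-fold), Kpna6 (18.8-fold) and Kpna7 (at least 2.41-fold) higher in testis. Tbp, the TATA-binding protein, was 11.4-fold higher in testis, while its relative Tbpl1 was dim in brain and detected on no testis (at least 1.21-fold). Actb, often taken as a reference gene, differed by -0.30 (SE 0.08, limma adjusted p = 0.00298), and its sign turned without normalization between arrays (0.03).

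Genes for the basic machinery of the cell were called at least 2-fold higher in brain about as often as genes in general, except those of respiration. They were called at least 2-fold higher in testis less often than the 27.4% of all genes. The shares were 0% of the ribosomal, 3.03% of the respiratory, 8.33% of the proteasome and 14.9% of the splicing genes. Of 52 tested cytosolic ribosomal protein genes 17 were at least 2-fold higher in brain, 0 in testis and 35 in neither, with a median difference of 0.69 against 0.28 over all genes. That is 32.7% higher in brain, against 33.5% of all genes. Rps15a was 30.6-fold, Rpl27a 8.94-fold and Rps4x 8.20-fold higher in brain, and Rpl24 (0.04) and Rpl41 (-0.06) did not pass. Many ribosomal protein genes have near-identical retrocopies that a probe may not separate. Of 66 tested genes of the respiratory chain and ATP synthase 36 were at least 2-fold higher in brain and 2 in testis (median 1.09), with Ndufa4 at 11.3-fold and Atp5j at 6.82-fold, against Atp5o at 2.25-fold and Cox7a2 at 2.07-fold in testis. Of 36 proteasome genes 11 were at least 2-fold higher in brain and 3 in testis (median 0.50), or 30.6% higher in brain. Psmb10, an immunoproteasome subunit, was 4.96-fold higher in brain. Psme4, the activator PA200 that acts in spermatids, read 9.36 to 9.53 in the brains and 12.09 to 12.13 in the testes, 6.24-fold higher, and the ATPase subunit genes Psmc3 (2.98-fold) and Psmc2 (2.45-fold) were higher in testis too. The medians of the ribosomal, respiratory, proteasome and splicing lists stayed above 0 under the other scalings, between 0.27 and 1.04, 0.76 and 1.53, 0.18 and 0.94, and 0.00 and 0.77.

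Splicing factors were divided between the tissues. Of 47 tested 15 (31.9%) were at least 2-fold higher in brain, 7 (14.9%) in testis and 25 in neither (median 0.42). Rbfox3, known as the neuronal marker NeuN, was 206-fold higher in brain with detection on 1 of 4 testes, Rbfox1 at least 187-fold, Celf4 33.7-fold with detection on 3 of 4 testes, and Snrpn, expressed from the paternal allele in neurons, with a difference of 4.86 on the log2 scale. Rbmxl2, a germ cell retrogene of an X-linked splicing factor, was at least 35.2-fold, Hnrnpf 10.1-fold and Ptbp1, the repressor that is low in neurons, 3.70-fold higher in testis. Srsf9 (-0.03) and Tra2a (0.01) did not pass.

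Kinesins and tubulins were split almost evenly, with 16 of 40 at least 2-fold higher in brain and 17 in testis, and their median of -0.58 ranged from -0.75 to 0.04 over the scalings. Tubb4a was 203-fold, with detection on 1 of 4 testes, and the axonal motor gene Kif5a 184-fold higher in brain, with detection on 2, and Kif2b at least 244-fold and Tubb6 25.4-fold higher in testis, with Tubb6 detected on 3 of 4 brains. Heat shock proteins and co-chaperones, with 12 of 30 higher in brain and 8 in testis, had a median difference of 0.36 that ranged from -0.06 to 0.70 over the scalings. Their median level was 6.60 to 7.12 on the brain arrays and 7.03 to 7.14 on the testis arrays, so the median of the differences and the difference of the medians differ in sign. Dnajc6, the auxilin of synaptic vesicle uncoating, was 193-fold higher in brain with detection on 2 of 4 testes, and Dnajc5b at least 420-fold and Dnajb3 202-fold higher in testis, the latter with detection on 1 of 4 brains.

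Genes of dividing cells were higher in testis, in which germ cells divide. Of 27 tested mitotic genes 21 were at least 2-fold higher in testis and 1 in brain (median -1.90), and 9 of the 27 were detected on no brain. The spindle genes Prc1 (76.7-fold), Aurka (75.3-fold, with detection on 1 of 4 brains), Cdc20 (43.4-fold) and Plk1 (43.2-fold) led, and Bub3 was 3.30-fold higher in brain. Immediate early genes, induced by synaptic activity and by handling of tissue, were at least 2-fold higher in brain for 11 of 17 and in testis for 2 (median 2.17). Egr1 was 33.1-fold, Fos, detected on 1 of 4 testes, 17.0-fold and Junb 9.32-fold higher in brain. Arc, known from active synapses, read 9.86, 9.81, 10.24 and 9.97 in the brains and 9.78, 9.79, 9.95 and 9.81 in the testes, which overlap (difference 0.14, limma adjusted p = 0.195). Klf4, known in spermatids and Sertoli cells, was 17.2-fold higher in testis.

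Shared transcripts were looked for by the level and by detection. A probe was taken to have a shared level when it was detected on all 8 arrays and the 95% interval of its difference lay within 1.5-fold either way, which 1619 probes met, 10.4% of those tested and 17.5% of the 9246 detected on all 8. The 10 with the smallest differences and narrowest intervals were Acd, a telomere protein, Aldh2, the mitochondrial aldehyde dehydrogenase, Chmp2a, of the membrane-cutting ESCRT machinery, Gsta4, Mrpl17, Slc4a2, Tigd2, Tmem80, Trpc4ap and Zc3h15. Aldh2 read 10.82, 10.82, 10.81 and 10.97 in the brains and 10.88, 10.74, 10.83 and 10.95 in the testes. All 10 differences lay within 0.03 of 0 here. Without normalization between arrays each of the 10 became positive, and after cyclic loess and with equated 75th percentiles each was negative, so a shared level holds only for the scaling used. Over all genes tested, 1338 of 10745 had at least 1 shared-level probe, and list counts are to be read against that share. Such probes were found for 14 of 47 splicing genes, 11 of 52 ribosomal protein genes, 8 of 36 proteasome genes and 8 of 66 respiratory genes. None were found for the 23 neuronal and the 27 acrosome genes. The brightest probes of 13 of the 23 were detected on no testis and those of 19 of the 27 on no brain. Such probes could not meet the rule, so this count was largely set by detection.

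By detection alone, 9246 of the 25697 probes were seen on all 4 brains and all 4 testes, 2049 on all brains and no testis, 1712 on all testes and no brain, and 7780 on no array of either. The control spleens of the study, 4 arrays from the same animals as the testes, gave a further tissue to set beside them. Of the probes seen on all brains and all testes, 449 probes for 401 genes were seen on no spleen. By the same rule 520 probes were seen in brain and spleen but not testis and 310 in testis and spleen but not brain, and 8035 in all 3 tissues. Of the 425 of the 449 probes with a gene symbol, 293 fell into the same class on the arrays of mutant animals. Of these 425, 114 were at least 2-fold higher in brain and 167 in testis. The germ cell transcripts of Prm1 and Gsg1 were detected on 4 of 4 spleens and that of Ldhc on 3, so a probe seen on some spleens is not counted whatever the source of its signal, which was not tested.

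**Figure D3:**
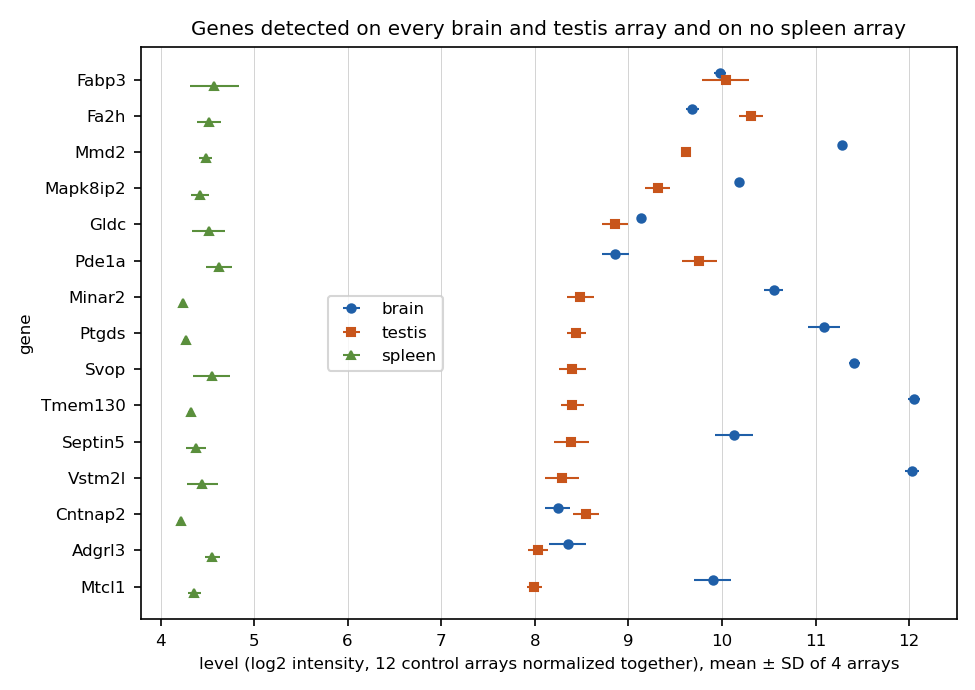
Levels of the 15 genes with the largest bounds over spleen among those detected on every control brain and testis and on no control spleen (log2 intensity, 12 control arrays normalized together, mean ± SD of 4 arrays per tissue). All spleen means lie left of every brain and testis mean.

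The genes named here are the 15 with the largest bounds over spleen. Fabp3 read 10.16, 10.30, 10.19 and 10.27 in the brains and 10.56, 9.95, 10.37 and 10.30 in the testes, ranges that overlap, with a difference of -0.06 (SE 0.12, limma adjusted p = 0.606). Over spleen it was at least 34.1-fold higher in brain and 35.7-fold in testis. Fa2h was at least 27.9-fold and 43.04-fold higher than in spleen, and Mmd2 was 3.19-fold higher in brain than in testis. Mapk8ip2, a scaffold of the JNK pathway, Gldc, the glycine-cleaving enzyme of mitochondria, and the phosphodiesterase gene Pde1a differed by 0.87, 0.28 and -0.91 between brain and testis. Ptgds, which makes prostaglandin D, was 6.33-fold higher in brain. Svop, a synaptic vesicle protein, Tmem130, Septin5, Vstm2l and Minar2 were 8.17-fold, 12.6-fold, 3.36-fold, 13.5-fold and 4.22-fold higher in brain, with mean testis levels of 8.53 to 8.73. Cntnap2, a cell adhesion protein of axons, and Adgrl3, a latrophilin receptor, differed by -0.30 (SE 0.10) and 0.32 (SE 0.11), and Mtcl1 was 3.77-fold higher in brain. For 139 of the 401 genes both bounds over spleen were at least 2-fold.

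**Figure D4:**
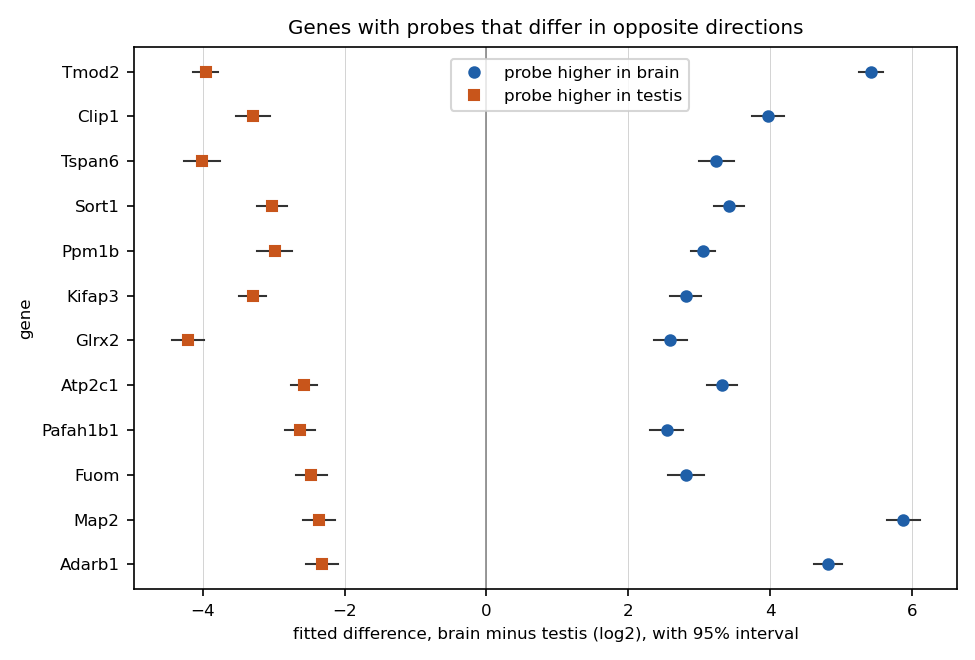
Fitted difference, brain minus testis (log2, with 95% intervals, n = 4 arrays each), of the 2 probes of each of 12 genes whose probes were called at least 2-fold in opposite directions. Circles to the right are probes higher in brain and squares to the left probes of the same gene higher in testis.

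Some genes had a probe higher in brain and another higher in testis. Of 2769 genes with 2 or more tested probes, 105 (3.79%) had probes called at least 2-fold in opposite directions. Ordered by the smaller of the 2 differences, the first was Tmod2, a tropomodulin that caps actin filaments in neurons. Its probe ILMN_3114546 read 11.16, 11.08, 11.13 and 11.01 in the brains and 5.58 to 5.74 in the testes (difference 5.42), and its probe ILMN_3040018 read 4.91 to 5.08 in the brains and 8.88, 9.10, 8.92 and 8.97 in the testes (difference -3.96). Map2, the dendritic microtubule protein, had a probe with a difference of 5.88 and another with -2.36. Clip1, a microtubule plus-end protein, had 3.97 and -3.29, the sorting receptor gene Sort1 3.42 and -3.02, Kifap3, the adaptor of kinesin-2, 2.81 and -3.29, and the RNA-editing enzyme gene Adarb1 4.81 and -2.32. Tspan6, Ppm1b, Glrx2, Atp2c1, Pafah1b1 and Fuom completed the first 12. The files give no probe positions, so which transcript form a probe reads is not known here, and the call of such a gene by its brightest probe hides the other.

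**Figure D5:**
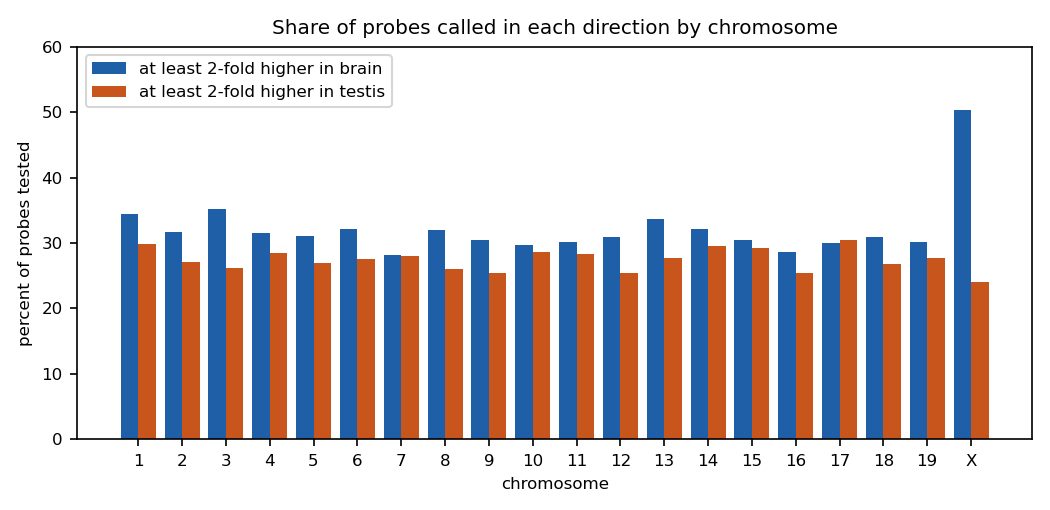
Percent of tested probes at least 2-fold higher in brain and at least 2-fold higher in testis (y axis, bars from 0) for the autosomes and the X chromosome (x axis). The X chromosome has the highest brain bar, 50.3%, against 28.2% to 35.2% on the autosomes.

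Genes on the X chromosome, which is silenced during male meiosis, were more often higher in brain. Of 503 tested X probes 50.3% were at least 2-fold higher in brain and 24.1% in testis, with a median difference of 1.02. On the 19 autosomes 28.2% to 35.2% were higher in brain and 25.4% to 30.5% in testis, as a description over probes. Over the other scalings the X share higher in brain lay between 41.4% and 58.6% and in each exceeded the highest autosome. The X share higher in testis was below the lowest autosome under 6 of the 7 scalings and inside the autosomal range without normalization between arrays (21.9% against 17.8% to 23.4%). Of 10 tested probes of the Y chromosome, all named here after their values were seen, 8 were at least 2-fold higher in testis and 0 in brain. Sly, Ssty2 and Usp9y were at least 9.24-fold, 21.0-fold and 7.52-fold higher in testis. The broadly expressed Kdm5d, detected on no testis, was at least 1.49-fold higher in brain. Uty, also broadly expressed and detected on 3 of 4 testes, was 1.43-fold higher in brain.

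Markers of tissues that can be carried along in dissection were present at low counts. Of 14 lymphoid genes 2 were tested and 1 was at least 2-fold different, Cd3d, a T cell receptor subunit, which read 8.61 to 9.05 in the testes and was detected on no brain. Of 13 erythroid genes 4 were tested. The haemoglobin genes Hba-a1 and Hbb-bt were 13.6-fold and at least 4.55-fold higher in brain, and Hemgn at least 31.8-fold higher in testis. Of 12 adipose genes 6 were tested, and the defining Adipoq read 8.29, 8.64, 8.43 and 8.42 in the testes and 4.36 to 4.66 in the brains, where it was not detected. Lep was at least 2.27-fold higher in testis, whereas Scd1, Plin4 and Lpl, which other cells express as well, were higher in brain. Of 17 pancreatic acinar genes 9 were tested, 5 higher in testis, and Cela2a read 6.91, 6.17, 7.64 and 6.62 in the testes and was not detected in the brains. Of 14 epididymis genes 3 were tested, 2 of them higher in testis, with Eppin at least 29.7-fold. Both tested pituitary genes of 9, Lhb and Tshb, were detected on all testes and on brain replicate 3 alone of the brains. The part of such tissue in the other results was not tested.

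Animals of the same tissue were close to each other apart from a few transcripts. Over the 9246 probes detected on all 8 arrays, the median SD was 0.11 among brains and 0.14 among testes. The most variable in brain was the probe ILMN_1238801 of Arl3, at 8.41 in replicate 1 and 5.94 to 5.96 in the other brains, and without that brain its difference changed from 0.30 to -0.31. It was followed by S100a8, a granulocyte protein, at 5.26 to 7.51, Ccl21c, Dlk1 and Xlr4a. The most variable in testis, beside Cfap69, were Clps, a pancreatic colipase, at 5.55 to 7.04, Klk1b22, at 5.85 to 7.41, and Apoh, which read 6.86 and 6.85 in the +/+ and 5.86 and 5.64 in the +/- testes.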

How the data were processed

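Total RNA of 4 control brains and 4 control testes, 1 animal per array, was hybridised to Illumina MouseRef-8 arrays. Per the file headers, the authors deposited background-subtracted intensities with a detection p-value per probe and array, not normalized between arrays; GenomeStudio 2011.1 is named in the submitters' processing notes. Of the intensities 22.5% to 24.2% were below 0. A deposited table of intensities normalized by the authors, with the procedure not stated in the labels, served as an alternative. Array number limits the precision.

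The 8 arrays were background corrected with neqc (offset 16) and quantile normalized in limma 3.58.1 (R 4.3.3), taken to log2 from the deposited intensities, and fitted with lmFit and eBayes, with Benjamini-Hochberg adjustment over 15531 probes detected at p under 0.05 on at least 4 of 8 arrays. Gene symbols came from the platform annotation: 23978 of 25697 probes had 1 symbol, and 1719 had none or more than 1. A gene was read by its brightest probe. The members and gene lists were chosen with earlier results of these data known. Named genes are, per list, up to 4 called members with the largest difference in the main direction, up to 3 in the other and up to 2 not called, with the 10 largest per direction, the 10 narrowest shared, 15 not seen in spleen, 12 with opposite probes, 5 most variable per tissue and the paralogue families. On simulated data with known changes, the fit over these probes recovered 22%, 58%, 98% and 100% of changes of 1.25-fold, 1.5-fold, 2-fold and 4-fold. There only a small part of the probes was changed, and noise was drawn independently for each probe. In the data 90.4% of probes were called, which makes the adjustment less strict, so these rates do not carry over to the data. Same-numbered brains and testes are different animals and did not deviate together, with correlations of -0.016 to 0.029. Alternatives were other background corrections, scalings and detection filters, variance moderation, the replicate block, +/+ testes alone, the authors' normalized table and each array left out in turn.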

Additional observations from a re-analysis of the deposited data

Results flagged for a closer look

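The 335 named probes gave 569 groups of 4 arrays in which the probe was detected, and 35 values stood apart from the other 3 arrays of their tissue by the gap test for 4 samples. Chance alone flags about 1 in 20 groups, which is 28 here, so the number of such values is close to that. The widest gap was that of Arl3 in brain replicate 1, at 8.41 on the log2 scale against 5.94 to 5.96 in the other brains. The pituitary hormone genes Lhb and Tshb stood at 5.85 and 6.30 in brain replicate 3, against 4.31 to 4.37 and 4.26 to 4.44 in the other brains. These were read on the same brain, and the part of pituitary tissue in that array was not tested.

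In brain replicate 1 the levels set apart from the other arrays of the tissue were Prdm9 at 5.02, Junb at 8.31 and Slc2a3 at 10.88. In brain replicate 3 the level set apart was that of Atl3 at 5.48. In brain replicate 4 the levels set apart from the other arrays of the tissue were Eno2 at 12.98, Aldh2 at 10.97, Chmp2a at 9.72, Tubb6 at 5.23, Cox6b1 at 12.58, Gapdh at 13.74, Hspa4l at 5.82, Kpna6 at 5.25 and Tmem130 at 12.40. In testis replicate 1 the levels set apart from the other arrays of the tissue were Kcnip2 at 7.38, Cdc20 at 10.78 and Cd3d at 9.05. In testis replicate 2 the levels set apart from the other arrays of the tissue were Tcte3 at 13.14, Grin2b at 8.06, Olig1 at 6.53, Ybx2 at 13.68, Hsd11b1 at 5.88, Ptgds at 8.54, Junb at 5.88, Stag1 at 7.09 and Tuba1a at 8.55. In testis replicate 3 the levels set apart from the other arrays of the tissue were Hnrnpf at 9.72 and Cox8c at 13.13. In testis replicate 4 the levels set apart from the other arrays of the tissue were Psmd13 at 11.08, Fos at 4.93, Lpl at 6.63, Lep at 5.68 and Aurkc at 5.46.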

How the results depend on the processing

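Of the counts recomputed under alternatives, 148 stayed within 1.5 times the count reported and 9 did not. With only probes detected on all 8 arrays, a filter that tests fewer probes, 8220 were called, 4444 higher in brain and 3776 in testis, 2768 and 2280 of them at least 2-fold, and 64 genes had opposite probes. The narrower of the other margins gave 428 probes at a shared level and one of 2-fold gave 3377. At a detection p under 0.01, 3133 probes were of mixed detection. With replicate number as a block 14050 probes were called. The list median changed sign without a filter for pituitary (0.78) and adipose genes (-0.0465), and for Sertoli cell genes over probes detected on all 8 arrays (0.31). Under that filter no lymphoid, pituitary or epididymis gene was left. Of the comparisons of a named probe with an alternative, 6335 kept their sign and side of the threshold, 76 gained and 22 lost the call, and 115 changed sign, 82 of them between values that both missed the threshold. Of the 33 in which a value passed, without normalization between arrays the differences became Tmem80 0.75, Gsta4 0.68, Chmp2a 0.52, Mrpl17 0.54, Acd 0.47, Slc4a2 0.55, Trpc4ap 0.67, Ift81 0.45, Foxj1 0.29, Ttc8 0.74, Tubg1 0.70, Ndufa2 0.30, Srsf9 0.43, Hspa4l 0.40, Actb 0.0268, Fabp3 0.39 and Cntnap2 0.31. With equated 75th percentiles they became Aldh2 -0.38, Prdm9 -0.24, Rpl24 -0.41, Ndufa9 -0.40, Psmd13 -0.38, Psma3 -0.40, Tra2a -0.31, Hspa9 -0.37 and Cst11 -0.28. After cyclic loess they became Tigd2 -0.30, Zc3h15 -0.23, Sostdc1 -0.48, Id4 -0.30, Nsdhl -0.40 and Pparg -0.30. With each replicate left out in turn, that of Arl3 ranged from -0.31, without brain replicate 1, to 0.51. The cause was not tested. A probe dim on all arrays of a tissue has only a bound there.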
